A study of Mus musculus with 6 samples.

Results

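The genes described here carry dietary fat through the gut epithelium and onto lipoproteins, namely Fabp1, Fabp2, Cd36, Dgat1, Dgat2, Apob, Mttp, Apoa1, Apoa4 and Apoc3. They were taken by gene symbol, as all probe sets that the platform annotation assigns to 1 of these symbols alone, which gave 21 probe sets of 10 genes among 18193 genes with such a probe set. RNA came from colonic mucosa of C57BL/6 mice, and the labels give the cell type as intestinal epithelial cells (IECs). Of 6 Affymetrix arrays, 3 were labelled p38a-knockout and 3 wildtype, with the letters A, B and C in each group and no treatment in either. Mapk14 is the gene of p38a, a protein kinase that responds to stress. The labels give no age, no promoter or Cre driver for the deletion, and no statement that the samples are separate animals, so the spread that the p-values measure may be technical.

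In the small intestine, long-chain fatty acids enter the enterocyte, where cytosolic fatty acid binding proteins carry them, and acyltransferases rebuild triglyceride from them. The microsomal transfer protein then loads the triglyceride onto apolipoprotein B, and the particle leaves the cell as a chylomicron that also bears smaller apolipoproteins. The colon takes up mainly water, salts and short-chain fatty acids, and is not a main site of dietary fat uptake.

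Values are log2(signal + 16) after quantile normalization, so the bottom of the scale is 4, and a fold on this scale understates the change of a dim gene. Probe sets with a mean below the 40th percentile of all probe sets (5.10) were not tested. All 12 colonic epithelial markers, Epcam, Vil1, Krt20, Car1 and Slc26a3 among them, were above that level. The arrays of wild type A and C were the dimmest, with 2% trimmed means of 141 and 117 against 188 to 222 on the other 4. On the same arrays the Gapdh control probe sets at the 3' end were brightest relative to those at the 5' end, a ratio that rises as RNA degrades, at 1.10 and 1.45 against 0.859 to 0.989. By group, the trimmed means were 192 to 222 in the arrays labelled knockout and 117 to 188 in wild type. The Gapdh ratios were 0.859 to 0.954 and 0.989 to 1.45. Neither measure overlapped between the groups, so brightness and the Gapdh ratio cannot be told apart from the label. The same ratio for the Actb controls did overlap (1.82 to 2.27 against 2.24 to 3.25). The brightest probe set of Mapk14 read 9.72, 9.91 and 9.73 in the arrays labelled knockout, above the 9.31, 9.44 and 9.37 of wild type, a difference of 0.41 (SE 0.15, limma adjusted p = 0.915). The other Mapk14 probe sets overlapped between the groups, with differences from -0.06 to 0.62. These values do not show a loss of the transcript, and where the Mapk14 probe sets lie relative to the deletion was not examined here. The wording "the arrays labelled knockout" is therefore used throughout. The number of arrays limits the precision.

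Of the 10 genes, 5 had a probe set above the filter, namely Fabp2, Dgat1, Dgat2, Apob and Mttp, with 9 probe sets in all. Fabp1, Cd36, Apoa1, Apoa4 and Apoc3 lay below it on all of their 12 probe sets. limma called none of the 9 probe sets at an adjusted p of 0.05. The background was 0 of 27002 probe sets (0%), with 952 at an unadjusted p under 0.05 (3.53%, of which 1.7% were higher and 1.82% lower in the arrays labelled knockout). Fabp2 alone among the 9 had an unadjusted p under 0.05, and it was also the only 1 whose groups did not overlap, against 8.74% of all probe sets tested (4.75% higher and 4% lower).

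**Figure D1:**
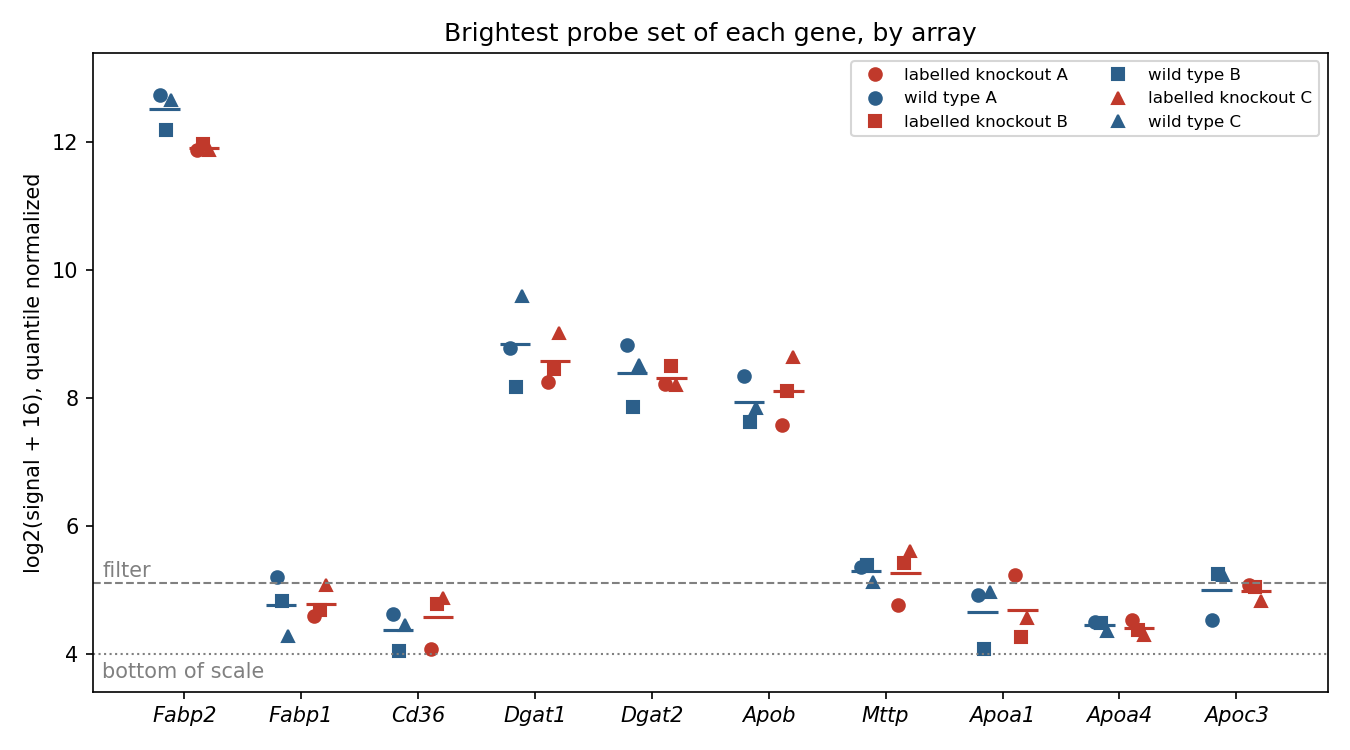
Signal of the brightest probe set of each gene on each array, as log2(signal + 16) after quantile normalization. Points are arrays, with circles, squares and triangles for the letters A, B and C, and short bars are group means over 3 arrays. The Fabp2 values of the arrays labelled knockout (11.88 to 11.98) lie below all wild-type values (12.19 to 12.74), and 5 genes lie below the dashed line of the filter.

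The intracellular fatty acid carriers differed in what could be measured. Fabp2 encodes the intestinal fatty acid binding protein of the enterocyte cytosol. In the order A, B and C it read 11.88, 11.98 and 11.88 on the arrays labelled knockout, against 12.74, 12.19 and 12.66 on the wild-type arrays. All 3 arrays labelled knockout lay below all 3 wild-type arrays, and wild type B stood closest to them. The spread within the arrays labelled knockout (SD 0.06, n = 3) was smaller than within wild type (SD 0.30, n = 3). The difference of the group means, 11.91 against 12.53, was -0.62 (SE 0.16), 1.53-fold lower in the arrays labelled knockout, with an unadjusted p of 0.00368 and an adjusted p of 0.915 in limma. Its 95% interval, not corrected for the number of probe sets, ran from -0.97 to -0.26. The exact two-sided permutation p was 0.1, the smallest that 3 against 3 arrays can give, and 0.9 after Benjamini-Hochberg adjustment over the 9 probe sets.

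The order of the groups for Fabp2 did not rest on the normalization, but the size of the difference did. On the signals as deposited, Fabp2 was 4597, 4381 and 4258 in the arrays labelled knockout and 5757, 5093 and 4872 in wild type. The groups were thus apart without any scaling as well, at a difference of -0.24 on the log2 scale (SE 0.18, limma unadjusted p = 0.209). The median of all probe sets lay at 0.40 in that setting. Against wild type B alone, which leaves out the 2 arrays with the highest Gapdh ratios, the difference was -0.28 (SE 0.15). With 1 array on that side, the spread in this SE and in every other comparison against wild type B comes from the arrays labelled knockout and the limma prior, and the lone array is assumed to vary like them. A fit that included the Gapdh ratio gave -0.39 (SE 0.20). All wild-type ratios, that of wild type B (0.989) among them, lay above those of the arrays labelled knockout (0.859 to 0.954). With 6 arrays this fit thus cannot fully separate the ratio from the group. Without wild type B the Fabp2 difference was -0.79 (SE 0.11, limma adjusted p = 0.119).

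Marker lists of the cells in the tissue are given beside Fabp2. The mean over the 12 colonic epithelial markers was 12.26 to 12.46 in the arrays labelled knockout and 12.31 to 12.53 in wild type, and the groups overlapped. Their summed deposited signal was 86372 to 96033 in the arrays labelled knockout and 78782 to 84925 in wild type, with no marker at 0. Within that list Aqp8, the aquaporin of surface colonocytes, read 10.79, 11.98 and 12.08 in the arrays labelled knockout and 12.72, 11.44 and 12.94 in wild type, so it too was highest in wild type A and C but the groups overlapped. The Aqp8 difference, -0.75 (SE 0.44, limma adjusted p = 0.915), was larger in size than that of Fabp2. Krt18, a keratin of simple epithelium, was the 1 marker of the 12 whose groups did not overlap, at -0.25 (SE 0.12), and they did overlap on the signals as deposited. Of 11 small intestinal enterocyte markers 7 were above the filter, with list means of 6.27 to 6.94 in the arrays labelled knockout and 6.17 to 6.63 in wild type and summed deposited signals of 3235 to 5420 and 2159 to 3618. The differences of these 7 had both signs, from 0.21 to 1.35 for Rbp2, Slc10a2, Slc5a1, Mgam and Gata4, and -0.74 for Fabp6 and -0.51 for Enpep. Rbp2 passed the filter only through the arrays labelled knockout (mean 5.89, against 4.54 in wild type), so the filter favours that direction. It was the only 1 of the 7 whose groups did not overlap (limma unadjusted p = 5.87e-05, adjusted p = 0.317). Slc10a2, with overlapping groups, had an unadjusted p of 0.0244 in limma (adjusted p = 0.915). Lct and Anpep lay near the bottom of the scale. No marker of the list was at 0.

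Smooth muscle markers were higher in the arrays labelled knockout in their list mean, at 6.61, 5.44 and 5.74 there against 5.38, 5.11 and 5.35 in wild type, and the groups did not overlap. Their summed deposited signals were 301 to 828 and 163 to 239, with 4 of 6 markers above the filter and none at 0. Tagln, an actin-binding protein gene of smooth muscle, read 6.88, 5.20 and 5.64 against 5.16, 4.56 and 4.85, and Des, the muscle intermediate filament gene, overlapped between the groups at -0.06 (SE 0.39). List means were 5.88 to 6.00 against 5.46 to 5.86 for 5 hepatocyte markers, 5.69 to 5.74 against 5.66 to 7.37 for 7 pancreatic acinar markers, with wild type B highest, and 6.69 to 7.54 against 6.64 to 6.85 for 4 genes of distal gut position. The part of epithelial, small intestinal, smooth muscle or other cell content in the Fabp2 difference was not tested, and in bulk RNA fewer cells of a type and less RNA per cell cannot be told apart.

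Fabp1, the liver-type carrier that the small intestine also makes, stayed near the bottom of the scale. Its brighter probe set read 4.60, 4.69 and 5.07 in the arrays labelled knockout and 5.20, 4.83 and 4.28 in wild type. The other read from 4.11 to 4.87 over the 6 arrays. The groups overlapped on both, the deposited signals were between 1.14 and 19.8, and no test was made. The windows upstream of the annotated starts of these genes of 1 family are printed because Fabp2 was the only gene of the 5 above the filter whose groups stood apart and Fabp1 is its family member below the filter. They are RefSeq sequence of GRCm38.p6, 250 bases up to the base before the start, both on the plus strand, at chr3:122894822-122895071 for Fabp2 and chr6:71199629-71199878 for Fabp1, with matches to the motifs searched in capitals.
Fabp2: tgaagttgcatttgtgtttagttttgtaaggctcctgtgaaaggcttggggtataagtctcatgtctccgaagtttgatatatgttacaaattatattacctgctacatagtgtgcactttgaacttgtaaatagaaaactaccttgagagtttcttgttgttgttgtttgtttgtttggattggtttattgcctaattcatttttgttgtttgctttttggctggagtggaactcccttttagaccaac
Fabp1: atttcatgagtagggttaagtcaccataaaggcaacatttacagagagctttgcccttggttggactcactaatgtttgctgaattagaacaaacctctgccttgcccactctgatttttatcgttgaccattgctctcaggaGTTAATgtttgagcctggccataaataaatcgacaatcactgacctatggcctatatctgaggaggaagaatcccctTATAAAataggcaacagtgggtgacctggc
The motifs searched on both strands were the TATA box, spelled TATAAA, an HNF1 half-site, spelled GTTAAT, an HNF4 site, spelled CAAAGTCCA, and a GATA factor site, spelled AGATAA. The Fabp1 window held TATAAA, whose first base was 30 bases before the start, and GTTAAT, 107 bases before it, and the 2 matches do not overlap. The Fabp2 window held none of the motifs, which says only that these letters are not in this window. Over 32851 windows of the same length, 12.4% held TATAAA, 6.43% GTTAAT, 0.384% CAAAGTCCA and 9.99% AGATAA. A window was at hand for 7 of the 10 genes, and 2 of the 7 held TATAAA, those of Fabp1 and Apob.

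Cd36 encodes a scavenger receptor that takes up long-chain fatty acids and is also made by macrophages, capillary endothelium and adipocytes. Its brightest probe set read 4.07, 4.78 and 4.88 in the arrays labelled knockout and 4.63, 4.03 and 4.44 in wild type. On that probe set the lowest arrays were thus knockout A and wild type B. Another Cd36 probe set was lowest in wild type C (4.04), and the last in wild type B (4.08) and the array labelled knockout C (4.12). The groups overlapped on all 3 Cd36 probe sets, with deposited signals of 0.330 to 19.9, near the bottom of the scale. The mean of 10 macrophage markers, 9 of them above the filter, was lowest in the array labelled knockout A (5.86) and wild type B (5.81). It was 6.48 to 6.70 in the other 4. Their summed deposited signal ran from 1788.5 to 2232 in the arrays labelled knockout and from 1020 to 1808 in wild type. Within wild type this sum was highest in B (1808), the array with the highest Cd14 value (10.45). The match of wild type B with the brightest Cd36 probe set thus held for the mean only. Of 9 endothelial markers 4 were above the filter, with differences of -0.36 to -0.25. Of those below it, Cldn5 (0.39) and Pecam1 (0.05) were higher in the arrays labelled knockout, and Tek, Emcn and Cdh5 lower (-0.33 to -0.21). The list means, at most 5.04 in the arrays labelled knockout and 5.14 to 5.24 in wild type, did not overlap. The groups did overlap for every single endothelial marker, and Pecam1 lay between 4.18 and 4.38 on all arrays. Of 8 adipocyte markers 5 were above the filter, and the adipocyte hormone gene Lep lay between 4.05 and 4.22. Adipocyte list means were 5.24 to 5.80 and 5.12 to 5.56. Summed endothelial signals were 170 to 207 and 186 to 188, and adipocyte sums 295 to 590 and 244 to 333, in the arrays labelled knockout and in wild type, with no marker at 0. The part of these cells in the Cd36 signal was not tested.

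The enzymes of the last step of triglyceride synthesis were measured on 2 probe sets each. Dgat1 encodes the acyltransferase of the endoplasmic reticulum that joins the third fatty acid to diacylglycerol. On its brighter probe set it read 8.26, 8.46 and 9.01 in the arrays labelled knockout and 8.78, 8.18 and 9.59 in wild type. Array C was the highest in both groups, the groups overlapped, and the difference was -0.27 (SE 0.36, limma adjusted p = 0.918). Its 95% interval ran from -1.08 to 0.54. The difference turned to 0.10 without wild type C, 0.40 against wild type B alone, 0.46 in the fit with the Gapdh ratio, 0.25 on the signals as deposited and 0.02 with median centring. The suffix of this probe set marks possible cross-hybridisation. The other Dgat1 probe set stayed between 5.62 and 5.98 on all arrays, with a difference of -0.04 (SE 0.20).

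Dgat1 had the widest range over the 6 arrays among the 5 genes above the filter, 1.41. The genes whose brightest probe sets followed it most closely were Clk1, a kinase of splicing factors (Pearson r = 0.997), Adar, an RNA-editing deaminase (0.996), Sfswap, a splicing regulator (0.994), Adcy2, an adenylate cyclase (0.994) and Klhl22 (0.994), each over 6 arrays. Of 12436 genes compared, 776 had an r above 0.9 with Dgat1. Like Dgat1, Clk1 was highest in wild type C (11.07) and the array labelled knockout C (10.63) and lowest in wild type B (10.04). These correlations describe 6 arrays that differ in brightness and Gapdh ratio.

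Dgat2 encodes the other, unrelated diacylglycerol acyltransferase. It read 8.21, 8.51 and 8.21 in the arrays labelled knockout and 8.82, 7.86 and 8.51 in wild type, so that wild type held both the highest and the lowest value. The difference was -0.09 (SE 0.26, limma adjusted p = 0.963), with a 95% interval from -0.68 to 0.51. The second probe set gave -0.08 (SE 0.19). The Dgat2 difference was 0.45 against wild type B alone, 0.22 in the fit with the Gapdh ratio, 0.13 without wild type A, 0.43 on the signals as deposited and 0.19 with median centring. It was -0.45 (SE 0.15, limma adjusted p = 0.0556) with array weights, -0.36 with the weights gene by gene and -0.36 without wild type B.

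**Figure D2:**
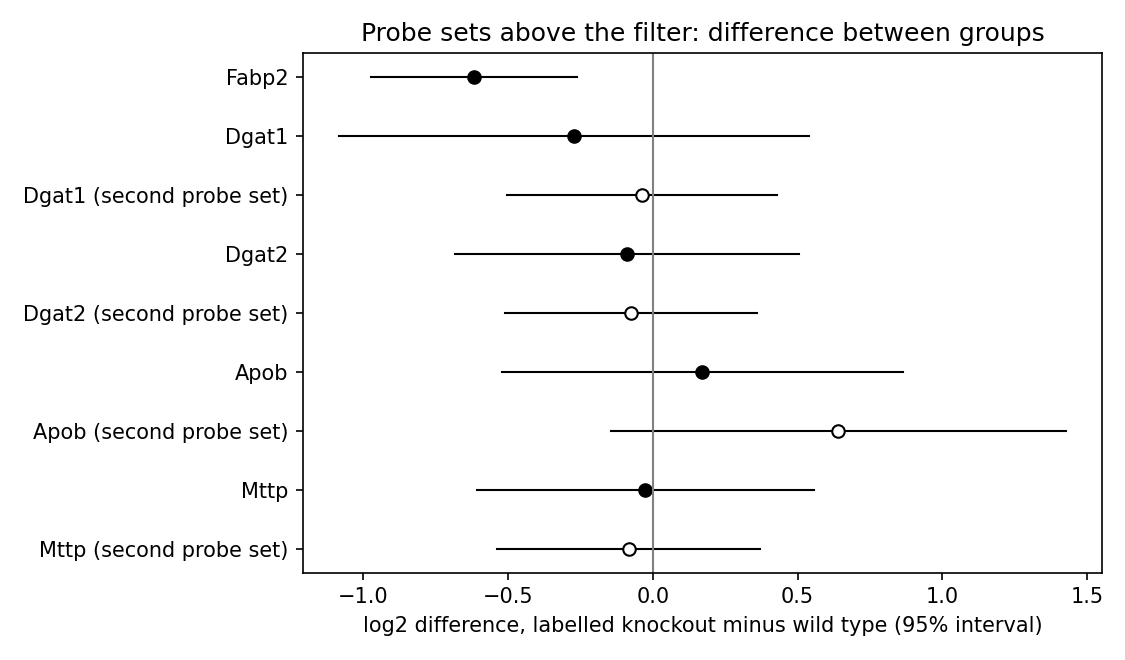
Differences between the group means of the 9 probe sets above the filter, labelled knockout minus wild type, on the log2 scale. Points are limma estimates, filled for the brightest probe set of a gene, and lines are 95% intervals without correction for multiple tests. Only the interval of Fabp2 (-0.97 to -0.26) does not include 0.

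Of the pair that forms the lipoprotein core, Apob encodes the structural apolipoprotein of chylomicrons. Its brighter probe set read 7.57, 8.11 and 8.64 in the arrays labelled knockout and 8.34, 7.63 and 7.84 in wild type. The groups overlapped, and the arrays labelled knockout held both the lowest value of all 6 (A) and the highest (C). The difference was 0.17 (SE 0.30, limma adjusted p = 0.931), and it was -0.10 without the array labelled knockout C. The second probe set, close to the filter, read 5.03, 5.84 and 5.53 against 5.27, 5.09 and 4.11, a difference of 0.64 (SE 0.34, limma adjusted p = 0.915). It passed the filter only through the arrays labelled knockout (mean 5.47, against 4.82 in wild type), so the filter favours that direction. There wild type C lay lowest, and without it the difference was 0.28 (SE 0.27), as it was 0.37 (SE 0.36) against wild type B alone and 0.01 (SE 0.41) in the fit with the Gapdh ratio. On the signals as deposited the brighter probe set stood at 0.64 (SE 0.32), where the median of all probe sets was 0.40.

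Mttp encodes the large subunit of the microsomal triglyceride transfer protein, which loads lipid onto apolipoprotein B. It read 4.77, 5.42 and 5.60 in the arrays labelled knockout and 5.36, 5.38 and 5.11 in wild type, just above the filter. The difference was -0.03 (SE 0.26, limma adjusted p = 0.990), with an interval from -0.61 to 0.56. Its second probe set read 4.90 to 5.35 in the arrays labelled knockout and 5.17 to 5.24 in wild type, at -0.08 (SE 0.20). The difference was positive under 4 alternatives, the largest 0.22 without the array labelled knockout A and the next 0.16 on the signals as deposited.

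The apolipoproteins of the particle surface gave no signal that could be tested. Apoa1, the main protein of high-density lipoprotein, which the small intestine secretes on chylomicrons as well, had 4 probe sets. The brightest read 5.24, 4.26 and 4.56 in the arrays labelled knockout and 4.91, 4.08 and 4.96 in wild type, and the other 3 had means of 4.14 to 4.41. Apoa4, a chylomicron apolipoprotein, read 4.30 to 4.53 in the arrays labelled knockout and 4.35 to 4.49 in wild type on its brighter probe set. On the other the 3 arrays labelled knockout (4.10, 4.10 and 4.11) lay below wild type (4.22, 4.15 and 4.15). These values spanned only 0.13 and lay near the bottom of the scale. Apoc3, an inhibitor of triglyceride clearance, read 5.07, 5.04 and 4.82 in the arrays labelled knockout and 4.53, 5.24 and 5.24 in wild type. Differences of the brightest probe sets were 0.04 for Apoa1, -0.05 for Apoa4 and -0.03 for Apoc3.

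Apoa1, Apoc3 and Apoa4 are neighbours in the genome, with Apoa5 next to them, in the gene order of the RefSeq table. Apoa5, which promotes triglyceride clearance, had a mean just below the filter. It read 5.80 and 6.17 in wild type A and C and 4.46 in wild type B, against 4.44, 4.64 and 5.11 in the arrays labelled knockout. The 2 protein-coding genes on either side of this cluster were above the filter. For Sik3 the arrays labelled knockout averaged 8.41 ± 0.23 (SD, n = 3) and wild type 8.37 ± 0.06, and for Zpr1 7.92 ± 0.10 and 7.81 ± 0.24. Pafah1b2 differed by 0.05 (SE 0.24) and Bud13 by 0.01 (SE 0.25). The groups overlapped for all 4 of these flanking genes.

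Other genes of fat absorption were taken from 6 lists of the pathway. Of 97 listed genes 88 had a probe set and 77 were above the filter. None of the 77 was called by limma in either direction (adjusted p of 0.05), while without adjustment 3 had a p under 0.05, of which 1 was higher and 2 were lower. That is 3.90% of the 77, against 3.88% of the 12437 genes tested. Groups did not overlap for 7 of the 77, 5 higher and 2 lower, which is 9.09% against 9.06% of all genes (4.68% higher and 4.38% lower). The median difference was -0.05, against 0.02 over all genes. Both shares are those of the background.

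**Figure D3:**
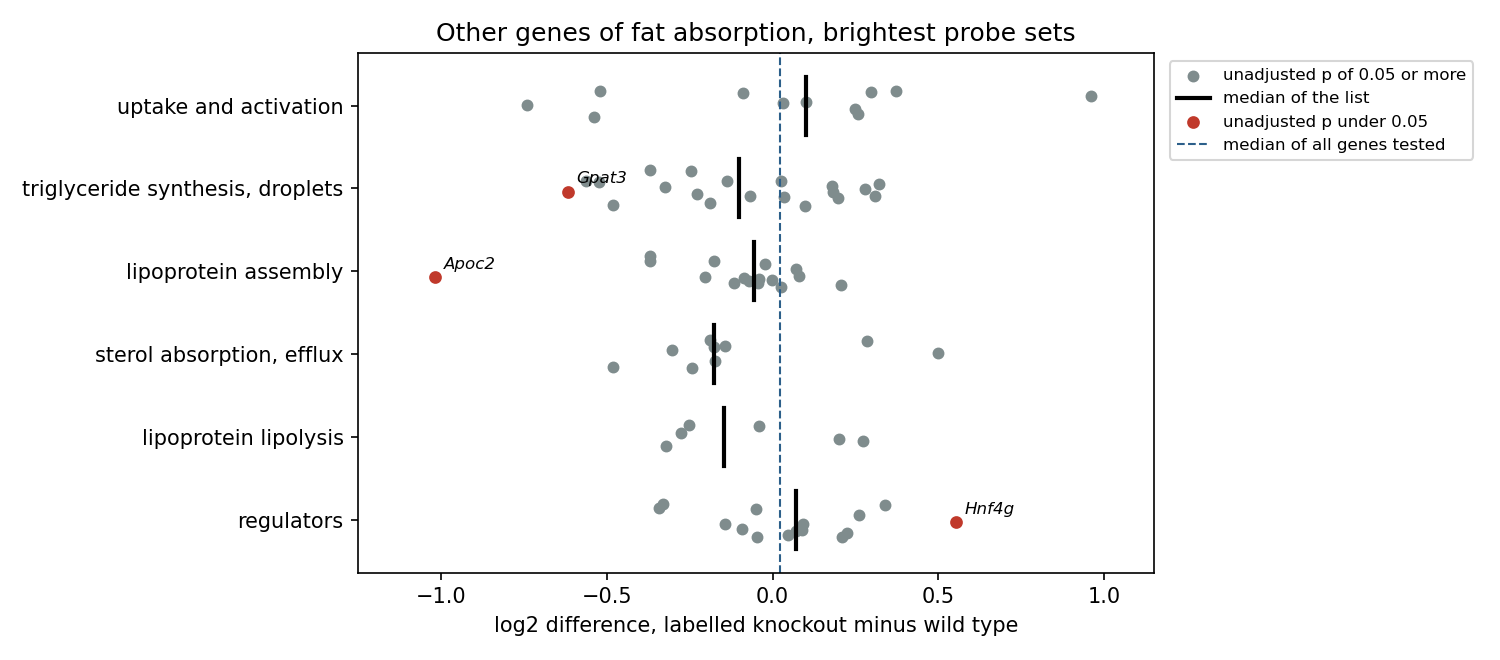
Differences of the other genes of fat absorption, labelled knockout minus wild type, on the log2 scale, by list. Each point is the brightest probe set of a gene, black bars are list medians, and the dashed line is the median of all genes (0.02). Points lie on both sides of 0 in each list, and Gpat3, Apoc2 and Hnf4g are those at an unadjusted p under 0.05.

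Those 3 genes are named because their values were seen. Apoc2, which encodes the activator of lipoprotein lipase, read 6.53, 7.70 and 7.60 in the arrays labelled knockout and 8.35, 7.71 and 8.81 in wild type. The groups did not overlap, but wild type B was nearly equal to the array labelled knockout B. The difference was -1.02 (SE 0.38, limma adjusted p = 0.915), and it was -0.44 against wild type B alone and -0.39 in the fit with the Gapdh ratio. On the signals as deposited the Apoc2 difference was -0.56 and the groups overlapped. Gpat3, a glycerol-phosphate acyltransferase of the first step of triglyceride synthesis, stood at -0.62 (SE 0.25, limma adjusted p = 0.915), with overlapping groups, and at -0.14 against wild type B alone. Hnf4g, a nuclear receptor of the intestinal epithelium, read 7.51, 7.12 and 7.17 in the arrays labelled knockout and 6.73, 6.87 and 6.54 in wild type, all 3 below. The Hnf4g difference was 0.55 (SE 0.20, limma adjusted p = 0.915), and 0.39 against wild type B alone. Apoc2, Gpat3 and Hnf4g kept their direction under all 20 alternatives, but they were picked by their p on these same arrays. Alternatives that change only the filter, the variance estimate or the replicate block could not turn a sign. The stable direction is thus no separate evidence for these genes.

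By role, uptake and activation genes had 7 positive and 4 negative differences, with a median of 0.10 over 11 genes. Its genes with the highest signal were Dbi, an acyl-CoA binding protein gene, at 0.10 (SE 0.11), Acsl5, a long-chain acyl-CoA synthetase gene, at 0.30 (SE 0.14), and Acsl3, another of these, at -0.09 (SE 0.18). Among 20 genes of triglyceride synthesis and lipid droplets 9 were positive and 11 negative, with a median of -0.10. Plin2, which coats lipid droplets, stood at 0.10 (SE 0.25), and the carboxylesterase genes Ces1f and Ces2e at 0.31 (SE 0.46) and 0.32 (SE 0.49). The lipoprotein assembly list had 4 positive and 12 negative differences among 16 genes, with a median of -0.06. P4hb, the small subunit of the transfer protein complex, stood at -0.02 (SE 0.13), Sar1b, a GTPase of chylomicron transport vesicles, at -0.04 (SE 0.12), and Sec23a, a coat protein gene of these vesicles, at -0.18 (SE 0.14).

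Sterol absorption and efflux genes had 2 positive and 7 negative differences, with a median of -0.18 over 9 genes. Npc2 and Npc1, which move cholesterol out of lysosomes, stood at -0.14 (SE 0.14) and -0.24 (SE 0.24), and Stard3, a cholesterol transfer protein gene, at -0.18 (SE 0.21). Of 6 lipolysis genes 2 were positive and 4 negative, with a median of -0.15. They include the receptor gene Vldlr at -0.25 (SE 0.22), the lipase gene Lpl at 0.20 (SE 0.34) and Lipg, another lipase gene, at -0.04 (SE 0.27). Of 15 regulators 9 were positive and 6 negative, with a median of 0.07. Hnf4a, the nuclear receptor that drives many apolipoprotein genes, stood at -0.09 (SE 0.12), Cdx2, the homeobox gene of intestinal identity, at 0.07 (SE 0.14), and Gata6 at 0.09 (SE 0.23). None of these 18 genes passed in limma, with adjusted p from 0.915 to 0.985. On the signals as deposited, where the median of all genes was 0.43, only 11 of the 77 differences were negative instead of 44, so these counts of signs move with the scaling.

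**Figure D4:**
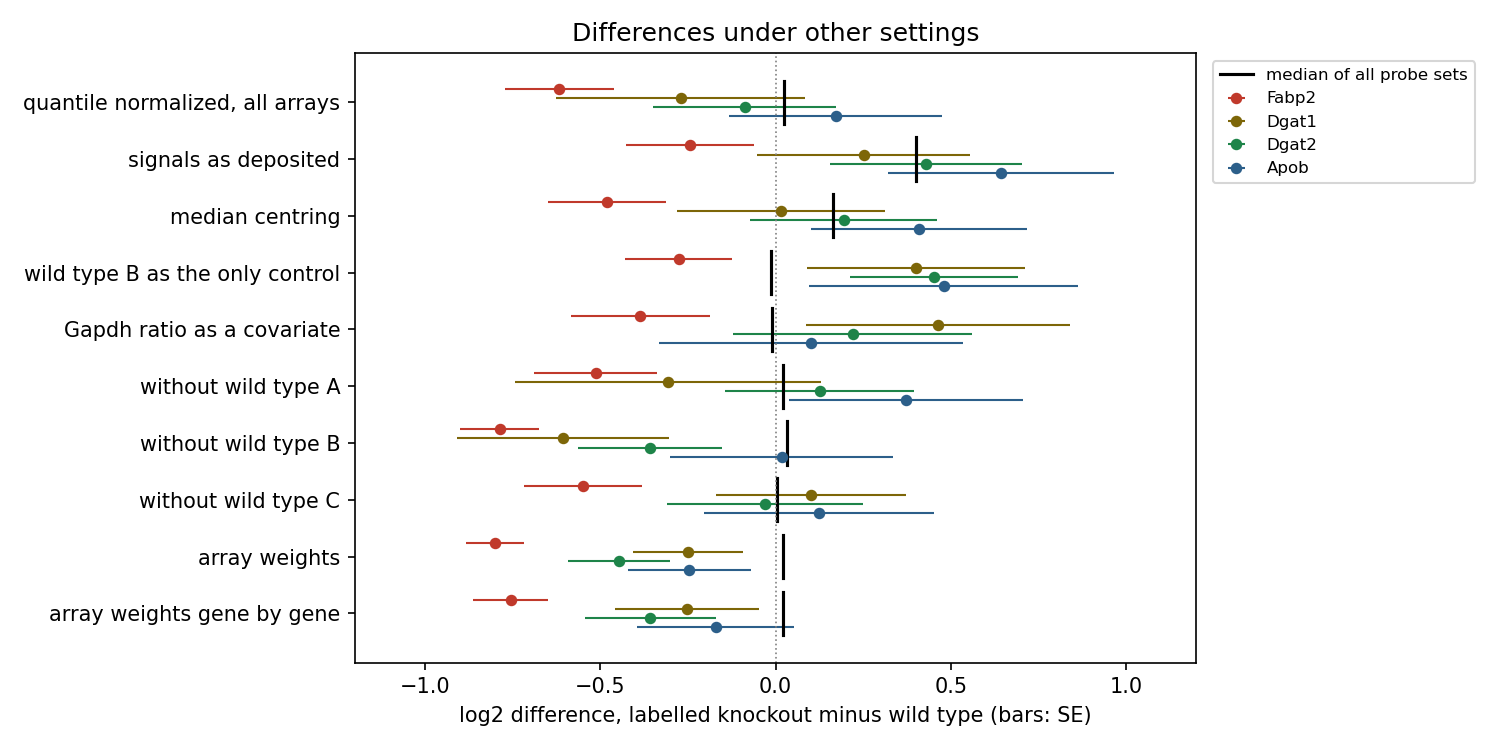
Differences of Fabp2, Dgat1, Dgat2 and Apob (brightest probe sets) under other settings, labelled knockout minus wild type, on the log2 scale. Points are limma estimates, bars standard errors, and black ticks the median of all probe sets in that setting. Fabp2 stays negative in all settings shown, from -0.80 to -0.24, while the other 3 genes have values on both sides of 0.

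Across settings Fabp2 was negative under all 20 alternatives. Other filters, 1 probe set per gene, no trend, a robust prior and the replicate block leave the estimate at -0.62 by construction. The sign could not turn there, and all alternatives reuse the same arrays. limma called Fabp2 in 2 of the 20, the array weights as estimated by default (adjusted p = 0.00237) and gene by gene (adjusted p = 0.0326). These weights were uneven. The default estimate gave wild type A a weight of 36.0 and the other 5 arrays 0.199 to 1.41, and called 5354 probe sets. Under the other 18 alternatives the adjusted p of Fabp2 was not past the threshold, and it was 0.371 on the signals as deposited. Dgat1, Dgat2, Apob and Mttp each changed sign under 3 to 5 alternatives.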

How the data were processed

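Total RNA of colonic mucosa was labelled with a 3' in vitro transcription kit and hybridised to 6 Affymetrix arrays, per the labels' protocols. The authors deposited 1 linear intensity per probe set and array, by MAS5, per the submitters' processing notes, whose version and scaling are not stated in what was used here. The 2% trimmed means differed between arrays, so signals were taken as log2(signal + 16) and quantile normalized. This gives all arrays 1 distribution and removes an overall difference between groups.

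The 64 control probe sets, and those whose mean lay below the 40th percentile (a signal of about 18.4), were left out, and 27002 of 45101 were tested. Probe sets had 1 gene symbol in 34945 cases, several in 932 and none here in 9160. The comparison of the groups used limma 3.58.1 in R 4.3.3 (lmFit, then eBayes with its trend option) and Benjamini-Hochberg adjustment over all probe sets, with an exact permutation test beside it (Python 3.11.15). The steps were tested on simulated data. A gene's value is its brightest probe set.

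All 10 genes were named, with the 3 genes of highest mean signal of each pathway list and the 5 genes most like the gene of widest range. The genes and lists were chosen with earlier results of these data known. Upstream windows came from RefSeq (GRCm38.p6). The alternatives tried were other scalings, pseudocounts of 1 and 64, other filters, 1 probe set per gene, no trend, a robust prior, array weights, a replicate block, each array left out, wild type B as sole control, and the Gapdh ratio as a covariate. Array weights gene by gene were added after seeing the data.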

Additional observations from a re-analysis of the deposited data

How the results depend on the processing

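Fabp2 kept its direction under all 20 alternatives, from -0.80 with array weights to -0.24 on the signals as deposited. Those that change only the filter, the variance estimate or the replicate block could not move the difference. Fabp2 passed the threshold with array weights (-0.80) and with array weights gene by gene (-0.76), an alternative chosen after seeing the data. The count of called probe sets, 0 in limma (952 at an unadjusted p under 0.05), was 5354 with array weights, 74 gene by gene, 2 against wild type B alone, 1 on the signals as deposited, 1 with median centring, and 0 to 2 with 1 array left out. Called probe sets of the 10 genes were 1 with either kind of array weights, and called genes of the pathway lists were 14 with array weights. The default weights did not converge, and the cause of the other changes was not tested. With the replicate block 1 probe set was called and Fabp2 stayed at -0.62 (limma adjusted p = 0.855). Deviations of arrays with the same letter correlated at -0.07, -0.16 and 0.43, and those with different letters at -0.46 to 0.54. With 3 arrays in each group these values cannot tell whether the letters pair the arrays.

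Signs turned as follows. On the signals as deposited Dgat1 read 0.25, Mttp 0.16, Dgat2 0.43, Acsl3 0.39, P4hb 0.38, Sar1b 0.43, Sec23a 0.30, Npc2 0.28, Stard3 0.34, Npc1 0.23, Vldlr 0.27, Lipg 0.41, Hnf4a 0.31, Clk1 0.26, Adar 0.24, Sfswap 0.33, Adcy2 0.24 and Klhl22 0.37. With median centring Dgat1 read 0.015, Dgat2 0.19, Acsl3 0.15, P4hb 0.14, Sar1b 0.19, Sec23a 0.061, Npc2 0.048, Stard3 0.11, Vldlr 0.035, Lipg 0.18, Hnf4a 0.075, Clk1 0.020, Adar 0.00022, Sfswap 0.091, Adcy2 0.0078 and Klhl22 0.14. Against wild type B alone Dgat1 read 0.40, Dgat2 0.45, Acsl3 0.21, Stard3 0.11, Npc1 0.19, Vldlr 0.17, Hnf4a 0.025, Gata6 -0.25, Clk1 0.25, Adar 0.31, Sfswap 0.16, Adcy2 0.28 and Klhl22 0.17. With the Gapdh ratio as a covariate Dgat1 read 0.46, Dgat2 0.22, Acsl3 0.25, Sar1b 0.055, Stard3 0.092, Npc1 0.12, Vldlr 0.097, Lipg 0.031, Gata6 -0.39, Clk1 0.28, Adar 0.33, Sfswap 0.22, Adcy2 0.30 and Klhl22 0.20. With array weights Apob read -0.25, Sar1b 0.018, Lipg 0.14, Cdx2 -0.029 and Gata6 -0.051, and gene by gene -0.17, 0.012, 0.088, -0.016 and -0.028. With 1 array left out, values ran from -0.61 to 0.10 for Dgat1, -0.19 to 0.22 for Mttp, -0.36 to 0.13 for Dgat2, -0.097 to 0.44 for Apob, -0.23 to 0.068 for Acsl3, -0.053 to 0.36 for Plin2, -0.040 to 0.82 for Ces1f, -0.16 to 0.76 for Ces2e, -0.086 to 0.083 for P4hb, -0.30 to 0.11 for Lipg, -0.16 to 0.26 for Gata6, -0.49 to 0.028 for Clk1, -0.57 to 0.026 for Adar, -0.31 to 0.045 for Sfswap, -0.39 to 0.059 for Adcy2 and -0.31 to 0.029 for Klhl22. Mttp lay below the filter at the 60th percentile and has no value there. Signal over background limits the 5 genes below the filter, for which the arrays give no usable difference.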

Other observations

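Some lipid genes differed more between single arrays than between the groups, and they are given here as values, chosen after they were seen. Fabp6, the ileal bile acid binding member of the same carrier family as Fabp1 and Fabp2, read 9.21 in the array labelled knockout C and 9.65 in wild type C, against 6.50 to 7.97 on the other 4 arrays. The difference between the groups was -0.74 (SE 0.74, limma adjusted p = 0.915). Ces2e, an intestinal carboxylesterase gene, was also highest in these arrays, at 10.55 and 10.15 against 8.49 to 9.15. Slc27a2, a fatty acid transport protein gene, read 8.04, 8.03 and 7.68 in the arrays labelled knockout and 7.20, 7.96 and 5.70 in wild type, so that wild type B lay within the other group and wild type C far below it. Its difference was 0.96 (SE 0.49, limma adjusted p = 0.915).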
